A study of Saccharomyces cerevisiae with 9 samples.

Results

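The 6 arrays of iron-starved yeast that carried either CTH1 or CTH2 on a plasmid were compared with the 3 arrays that carried the empty plasmid, to describe the response common to both paralogues. All 9 arrays of the series enter this comparison. The arrays were assigned to their groups by the sample titles alone. Every culture was a Saccharomyces cerevisiae strain deleted for both chromosomal genes and held the plasmid pRS416 with no insert (vector), with CTH1 or with CTH2, 3 arrays each. All grew at 30 °C for about 6 hours, to exponential phase, in synthetic medium without uracil. The medium held 100 µM of BPS, bathophenanthroline disulfonate, which binds iron and keeps it from the cells. There was no iron-replete culture, no wild type and no strain with both genes, and the labels do not give the promoter behind the inserts. The titles number the replicates but do not say whether each was a separate transformant, so p-values measure the spread between these cultures.

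Cth1 and Cth2 belong to the tristetraprolin family of RNA-binding proteins. Their tandem zinc fingers bind AU-rich elements of messenger RNAs and lead to the decay of those messengers. In budding yeast the pair is known for lowering transcripts of iron-using pathways, such as respiration and heme synthesis, when iron is short. CTH2 appears in gene annotation under its standard name, TIS11.

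Values are Affymetrix MAS5 signals, which were scaled per array. They are therefore relative levels, and a change in the total amount of messenger cannot be seen. Each array reads a whole culture, so a loss of a messenger in every cell and a loss in some cells cannot be told apart. Differences are log2 values, the mean of the CTH1 and CTH2 group means minus the vector mean, with the standard error (SE) of a limma model. A gene was called at a Benjamini-Hochberg adjusted p under 0.05 over all 4537 genes tested.

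The introduced genes followed the labels. CTH1 had signals of 231, 592 and 288 on the CTH1 arrays, 0.583 to 1.21 with the vector and 1.54 to 14.3 with CTH2. TIS11 had signals of 3801, 3389 and 4498 on the CTH2 arrays, 0.878 to 5.9 with the vector and 1.81 to 10.2 with CTH1. Both genes lay under the signal floor of 43.2 wherever they were not introduced. The group geometric mean was at least 7.87-fold higher than that floor for CTH1 and at least 89.6-fold higher for TIS11 in the group that carried the gene.

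The arrays were alike in overall level, with median signals of 218 to 255 over the probe sets of 1 gene, and correlated with their own group at 0.905 to 0.983. For ACT1 the ratio of the 3′ to the 5′ probe set was 1.17 to 1.64 with the vector and 0.907 to 1.4 with either gene (two-sided exact permutation p = 0.524, 6 against 3 arrays). For SPT15 this ratio was 4.7, 1.04 and 1.84 on vector replicates 1, 2 and 3. It was 1.56 to 3.43 with either gene (two-sided exact permutation p = 0.786). A 25S ribosomal RNA control set had 3349 to 4649 with the vector and 367 to 6588 with either gene (two-sided exact permutation p = 0.262). The CTH2 arrays had 367, 1010 and 617, and CTH1 replicate 3 had 884. An 18S control set had 454 to 993 with the vector and 239 to 2162 with either gene (two-sided exact permutation p = 0.81). Its CTH2 values of 239, 287 and 286 lay below all other arrays, while CTH1 had 2162, 460 and 1911. Short messengers were low on CTH1 replicate 3. There the 297 genes with coding sequences of up to 400 nucleotides had a median deviation -0.679 from that of the 3003 genes longer than 900. The other arrays had -0.0745 to 0.212. The summed signal of 7 a-cell genes was 3461 to 4470 with the vector and 1749 to 4256 with either gene. Among them the receptor STE2 was read at 427 to 573 on all arrays, while the pheromone genes MFA1 (-1.26, SE 0.43) and MFA2 (-0.79, SE 0.46) had lower means with either gene. STE6 (0.34), BAR1 (0.26) and AGA2 (0.17) had higher means, STE2 had -0.05, and the median of the 6 tested was 0.06. MFA1 and MFA2 have coding lengths of 111 and 117 nucleotides, and without CTH1 replicate 3 they had -0.93 and -0.39. Summed over 5 alpha-cell genes the signal was 392 to 476 with the vector and 375 to 647 with either gene, and over 15 sporulation genes 653 to 910 and 553 to 951.

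No gene other than TIS11 passed over all genes. Values lower with either gene at an unadjusted p under 0.05 were found for 4 of 4 subunits of succinate dehydrogenase, 7 of 9 of the cytochrome bc1 complex, 5 of 9 of cytochrome c oxidase and 5 of 8 genes of heme metabolism, where 3.31% of all genes had them. SDH2, which carries the iron-sulfur clusters of succinate dehydrogenase, came nearest, 2.64-fold lower (-1.40, SE 0.23, limma adjusted p = 0.088). The next genes on that side were QCR7, ACO1, QCR8, HEM15, WTM1, SDH1, COX6, NFT1, CCP1, HIS3 and ILV3, each at least 1.77-fold lower. On the other side were the cell wall mannoprotein HPF1 (1.01, SE 0.18, limma adjusted p = 0.14), the glucose transporters HXT6 and HXT7, the glycogen synthase GSY1 and the hexokinase HXK1. Of 4537 genes, limma called 1 higher (0.022%), which was TIS11 itself, and 0 lower (0%). TIS11 was the insert of the CTH2 group and passed the signal filter only through those arrays. Its difference from vector was 0 for CTH1 and 6.49 for CTH2, so this call is not a response common to both. An unadjusted p under 0.05 was reached by 256 other genes with higher values and 150 with lower ones, where 227 in all would be expected of 4537 unchanged genes. With TIS11 counted they are 8.97% of the tested genes, made of 5.66% on the higher side and the 3.31% above on the lower side. The split depended on the scaling: after median scaling 119 genes were higher and 248 lower, after quantile normalization 176 and 184, and after removal of a coding-length trend 178 and 203. SDH2 was called with the common median (limma adjusted p = 0.034), with array weights (0.026), after removal of a coding-length trend (0.024) and without vector replicate 1 (0.025), but its adjusted p was 0.53 without vector replicate 2 and 0.41 without vector replicate 3.

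Succinate dehydrogenase feeds electrons from the TCA cycle into respiration through a flavin, iron-sulfur clusters and heme. SDH2 had signals of 1177, 1903 and 2132 with the vector, 812, 639 and 709 with CTH1, and 699, 612 and 430 with CTH2. All 6 arrays lay below the 3 vector arrays, and the paralogues were close, with a CTH2 minus CTH1 difference of -0.33 (95% interval -0.90 to 0.23). The flavoprotein subunit SDH1 had 365, 727 and 584 with the vector, 283, 237 and 208 with CTH1, and 239, 198 and 314 with CTH2. Here too the groups did not overlap, and the difference between the paralogues was 0.03 (-0.57 to 0.63). The membrane anchors SDH4 (-0.81, SE 0.23) and SDH3 (-0.79, SE 0.28) had lower means in both groups, but their arrays overlapped. SDH3 had 774 and 852 on CTH1 replicates 1 and 3 against 805 on vector replicate 2, and SDH4 had 1149 on vector replicate 3 against 1393 on CTH1 replicate 2. All 4 subunits had an unadjusted p under 0.05 with lower values, where 3.31% of all genes did. The median over the 4 was -0.98, against 0.05 over all tested genes, and the CTH1 arrays (-0.87, -1.29 and -1.01 from the vector mean) covered nearly the same range as the CTH2 arrays (-1.06, -1.32 and -0.81).

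Of the other TCA cycle enzymes, the iron-sulfur enzyme aconitase, ACO1, was the one with the smallest p. It had signals of 6384, 10371 and 5155 with the vector, 3693, 4860 and 4738 with CTH1, and 2367, 2271 and 2862 with CTH2. No array with either gene reached the lowest vector array, but the levels formed 3 steps. The difference from vector was -0.67 for CTH1 and -1.49 for CTH2, and the paralogues differed by -0.82 (95% interval -1.36 to -0.28), which did not pass over all genes (limma adjusted p = 0.45). The pooled ACO1 difference of -1.08 (SE 0.22) was -0.79 without vector replicate 2, its highest array. The ketoglutarate dehydrogenase subunit KGD1 had -0.18 with CTH1 and -1.02 with CTH2. Of the 11 genes measured of 13, 2 had an unadjusted p under 0.05 with lower values, where 3.31% of all genes did. The median over the pathway was -0.05, near the 0.05 of all genes. Its CTH1 median was 0.03 and its CTH2 median -0.27.

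**Figure D1:**
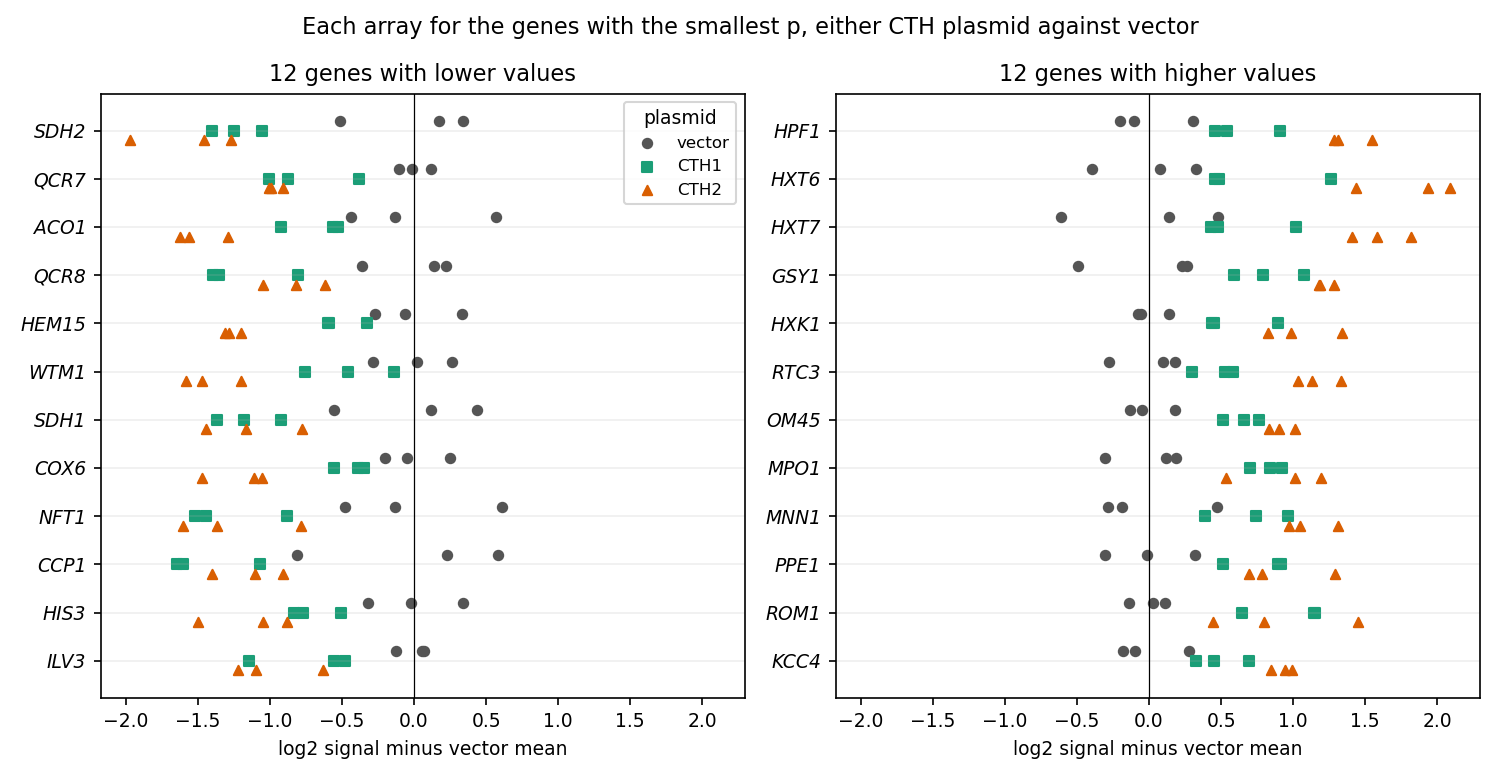
Each point is 1 array, as its log2 signal minus the mean of the 3 vector arrays, for the 12 genes with lower values (left) and the 12 with higher values (right) that had the smallest p for either CTH plasmid against vector. All 6 CTH arrays lie outside the vector arrays for 11 genes on the left and 10 on the right, and the genes were chosen for this difference.

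The cytochrome bc1 complex passes electrons from ubiquinol to cytochrome c through hemes and the Rieske iron-sulfur cluster. QCR7, one of its small subunits, had signals of 3487, 3716 and 4070 with the vector, 2873, 1869 and 2045 with CTH1, and 1887, 1865 and 1999 with CTH2. Every CTH array lay below the vector arrays, and the difference was -0.86 (SE 0.17, limma adjusted p = 0.16). QCR8, another small subunit, had 1584, 2370 and 2242 with the vector, 1165, 775 and 796 with CTH1, and 1154, 982 and 1328 with CTH2. Its difference of -1.01 rests on the brighter of 2 probe sets, as the dimmer one had 0.01 (SE 0.23) and their mean -0.50. Cytochrome c1, CYT1, was lower on all 6 arrays as well (-0.79, SE 0.21), while the Rieske protein RIP1 (-0.64), QCR6 (-0.61), QCR2 (-0.84) and QCR9 (-0.44) overlapped the vector arrays. All 9 subunits had values below 0, including QCR10 (-0.34) and the core protein COR1 (-0.14, SE 0.48). An unadjusted p under 0.05 with lower values was reached by 7 of the 9, 3 of which had no overlap, where all 6 arrays lay below the vector for 1.41% of all genes. The median was -0.64, made of -0.39 with CTH1 and -0.88 with CTH2.

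Cytochrome c oxidase reduces oxygen at the end of the chain with heme and copper. COX6 had signals of 1106, 1230 and 1510 with the vector, 1001, 972 and 867 with CTH1, and 589, 612 and 459 with CTH2. The CTH1 arrays lay just under the vector arrays and the CTH2 arrays far under them (-0.43 and -1.21), which differ by -0.78 (95% interval -1.22 to -0.35, limma adjusted p = 0.34). COX9 (-1.14, SE 0.28), COX5A (-0.73, SE 0.20) and COX8 (-0.49, SE 0.15) were also lower on all 6 arrays. COX9 has a coding length of 180 nucleotides, and its lowest signal, 479, was that of CTH1 replicate 3, the array low in short messengers. COX4 (-0.55) and COX7 (-0.50) overlapped the vector arrays, COX13 had -0.21 and COX12 -0.14. COX5B, the isoform of COX5A used at low oxygen, had a higher value of 0.56 (SE 0.19), so the isoforms of this subunit had opposite signs in both groups. In all, 5 of 9 subunits had an unadjusted p under 0.05 with lower values and 1 with a higher value, against 3.31% and 5.66% of all genes. The median over the 9 subunits was -0.50, and -0.37 after removal of the coding-length trend.

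Among the carriers and dehydrogenases around these complexes, CCP1, the heme peroxidase that uses cytochrome c, had signals of 453, 1192 and 934 with the vector, 262, 255 and 380 with CTH1, and 424, 302 and 370 with CTH2. The groups did not overlap, although vector replicate 1 was only slightly above the highest CTH2 array. Without that vector array the difference grew from -1.29 to -1.69 and was called (limma adjusted p = 0.025), but the limma adjusted p was 0.68 without vector replicate 2 and 0.67 without vector replicate 3. Iso-1-cytochrome c, CYC1, was lower on all 6 arrays (-0.74, SE 0.21). The internal NADH dehydrogenase NDI1 had -0.86 (SE 0.23). The mitochondrial glycerol 3-phosphate dehydrogenase GUT2, which enters the chain by its own flavin, had a higher value of 0.85 (SE 0.23), with 0.75 for CTH1 and 0.96 for CTH2. Of 14 assembly factors of the oxidase that were measured, 3 had an unadjusted p under 0.05 with lower values, where 3.31% of all genes did. They were PET100 (-0.65), the copper chaperone COX17 (-1.05) and COX14 (-0.53). The 16 ATP synthase genes, which use no iron, had a median of -0.22, and ATP15 (-1.20, SE 0.45) was the only 1 with an unadjusted p under 0.05.

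In heme synthesis, HEM15, the ferrochelatase that inserts iron into protoporphyrin, had signals of 705, 1071 and 813 with the vector, 563, 565 and 677 with CTH1, and 342, 349 and 369 with CTH2. Each CTH2 array was lower than each CTH1 array, and each CTH1 array lower than each vector array. The difference from vector was -0.50 for CTH1 and -1.27 for CTH2, and the CTH2 minus CTH1 difference was -0.76 (95% interval -1.21 to -0.31, limma adjusted p = 0.39). HEM1, which makes aminolevulinate at the start of the pathway, had -0.76 (SE 0.19), and the uroporphyrinogen synthase HEM4 had -0.50 (SE 0.18), both without overlap. For these 2 genes the paralogues were closer, with -0.63 and -0.88 for HEM1 and -0.41 and -0.59 for HEM4. The oxygen-dependent oxidase HEM13 had -0.71 (SE 0.32) and HEM14 -0.29, whereas HEM2 (0.36) and HEM12 (0.35) had values above 0. The heme oxygenase HMX1, which takes heme apart, had -0.05 with CTH1 and -0.86 with CTH2, so its pooled value of -0.46 describes neither group. Of 8 genes measured of 9, 5 had an unadjusted p under 0.05 with lower values, and the median was -0.48.

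**Figure D2:**
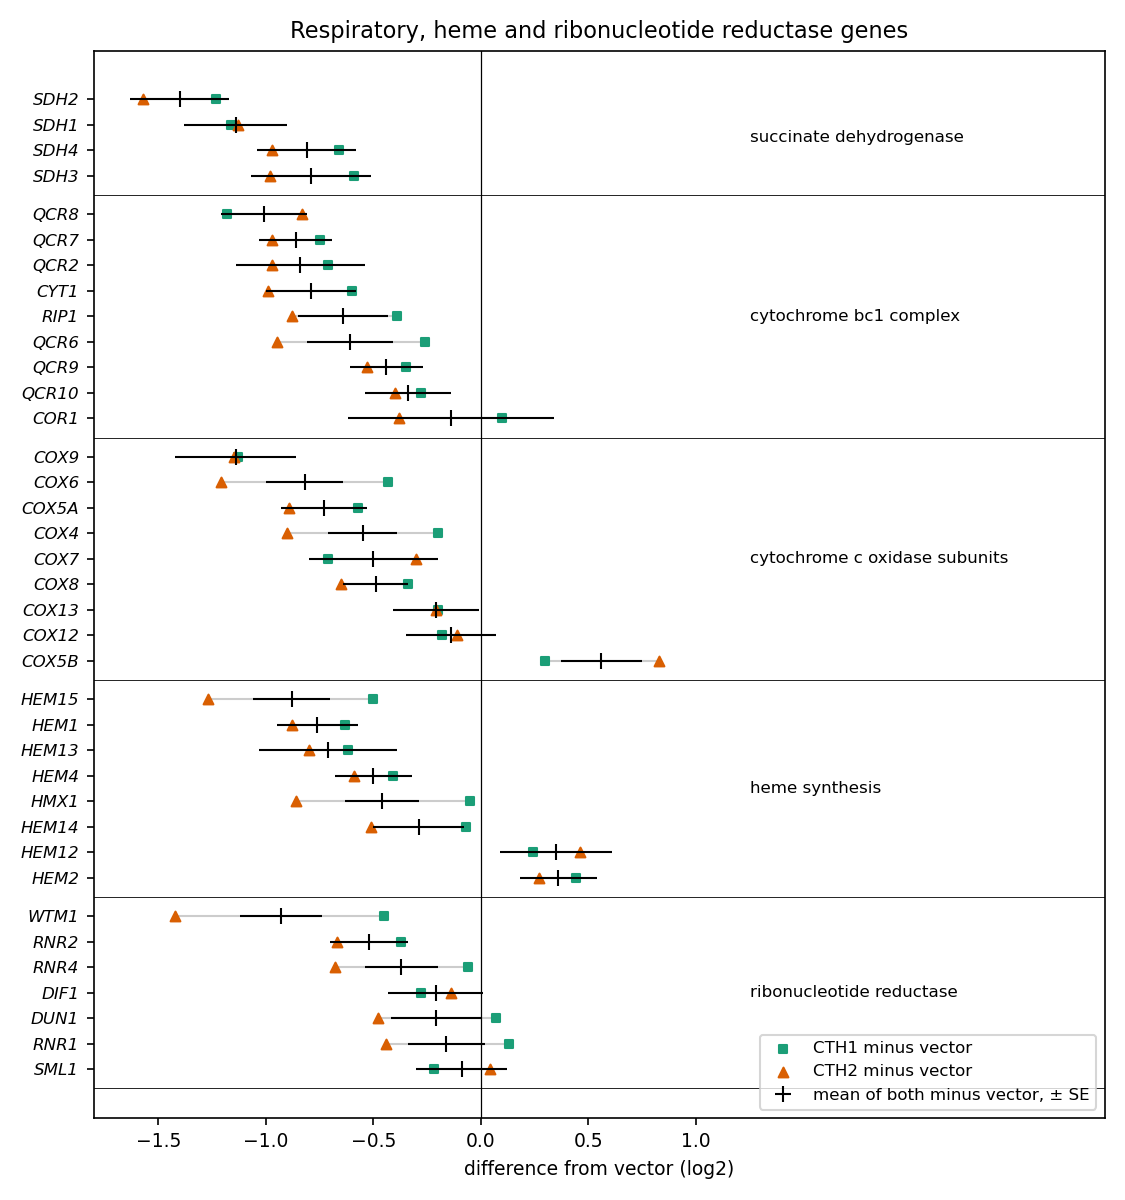
Differences from vector on the log2 scale for every measured gene of 5 groups, with squares for CTH1, triangles for CTH2, and bars for the mean of both with its SE. Values for SDH1 (-1.16 and -1.13) and COX9 (-1.13 and -1.15) nearly coincide, while WTM1 (-0.45 and -1.42), HMX1 (-0.05 and -0.86) and COX6 (-0.43 and -1.21) are far apart.

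WTM1 encodes the nuclear anchor for the small subunits of ribonucleotide reductase, the di-iron enzyme that makes deoxyribonucleotides, and its pooled value rests mostly on CTH2. Its signals were 3249, 2622 and 3841 with the vector, 2905, 1895 and 2331 with CTH1, and 1395, 1156 and 1070 with CTH2. CTH1 replicate 1 lay inside the vector range, and the CTH2 arrays lay far under all others. The pooled difference was -0.93 (SE 0.19) and the CTH2 minus CTH1 difference -0.97 (95% interval -1.44 to -0.49, limma adjusted p = 0.25). The small subunits RNR2 (-0.37 and -0.67) and RNR4 (-0.06 and -0.68 for CTH1 and CTH2) had lower pooled values of -0.52 and -0.37, and the large subunit RNR1 had -0.16. The regulators DIF1, DUN1 and SML1 had pooled values of -0.21, -0.21 and -0.09. Of 7 genes measured of 9, 3 had an unadjusted p under 0.05 with lower values, where 3.31% of all genes did. The group median was -0.21, and it was -0.36 without vector replicate 1 and -0.13 without vector replicate 2.

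In amino acid synthesis, ILV3, the iron-sulfur dihydroxyacid dehydratase of branched-chain synthesis, had signals of 3758, 3289 and 3723 with the vector, 2568, 1617 and 2438 with CTH1, and 2317, 1673 and 1538 with CTH2. No array overlapped, and the paralogues differed by -0.25 (95% interval -0.75 to 0.24). ILV5, an enzyme of the same pathway that uses no iron, had -0.68 (SE 0.19). The iron-sulfur isomerase LEU1 had -0.62 (SE 0.24), and the iron-free LEU4 had -0.79 (SE 0.24). The glutamate synthase GLT1 (-0.79, SE 0.20) and the homoaconitase LYS4 (-0.80, SE 0.28), both iron-sulfur enzymes, were lower on all 6 arrays, with CTH2 minus CTH1 differences of -0.20 and -0.03. The sulfite reductase subunits MET5 (0.01) and MET10 (-0.04), of an enzyme with an iron-sulfur cluster and siroheme, were near 0. In branched-chain synthesis 4 of 11 genes had an unadjusted p under 0.05 with lower values and 0 with higher ones, with a median of -0.17. In glutamate and lysine synthesis 2 of 11 were lower and 2 higher on those terms, with a median of -0.03. Over all genes 3.31% were lower and 5.66% higher.

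The machinery that builds iron-sulfur clusters was split. Of 22 genes measured, the cluster carrier NFU1, the ferredoxin YAH1 (-0.59), ISA1 (-0.47) and the glutaredoxin GRX5 (-0.65) had an unadjusted p under 0.05 with lower values, where 3.31% of all genes did. NFU1 had 273, 513 and 459 with the vector, 185, 243 and 246 with CTH1, and 227, 225 and 116 with CTH2, with no overlap, and was -0.85 for CTH1 and -1.15 for CTH2. The remaining 18 did not reach it, 12 of the 22 had values below 0, and the median was -0.02. The lipoate synthase LIP5, an iron-sulfur enzyme, had -0.69 (SE 0.21), in a group of 9 with a median of 0.13. The di-iron hydroxylase SCS7, which acts on sphingolipids, was lower on all 6 arrays (-0.74, SE 0.18) with -0.41 for CTH1 and -1.07 for CTH2. The 25 sterol and lipid genes had a median of -0.08.

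Iron uptake genes differed little from the vector when both paralogues were pooled. The median of the 27 measured members of the iron uptake regulon was -0.11, and no member had all 6 arrays on 1 side of the vector. The iron oxidase FET3 had -0.10 (SE 0.17) and its permease partner FTR1 -0.11 (SE 0.16). The 3 members with an unadjusted p under 0.05 were FIT1, a mannoprotein that retains siderophore-bound iron, the mitochondrial iron carrier MRS4 and HMX1. All 3 had lower values, as had 3.31% of all genes on those terms. For FIT1 the signals were 4969, 5906 and 3828 with the vector, 3345, 4776 and 5885 with CTH1, and 2191, 1921 and 1387 with CTH2. The CTH1 arrays lay mostly within the vector range, all CTH2 arrays lay below it, and the paralogues differed by -1.34 (95% interval -1.90 to -0.78). CCC1, which stores iron in the vacuole, had -0.72 (SE 0.23), with -0.48 for CTH1 and -0.97 for CTH2, and vector replicate 1 lay among the CTH1 arrays.

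On the higher side, genes of sugar import and storage were among those with the smallest p. HPF1 had signals of 1389, 1847 and 1298 with the vector, 2807, 2047 and 2177 with CTH1, and 3636, 3698 and 4369 with CTH2. The groups formed 3 separate levels, the CTH2 minus CTH1 difference being 0.74 (95% interval 0.30 to 1.19). HXT6, a high-affinity glucose transporter, had 1184, 998 and 718 with the vector, 1302, 2273 and 1327 with CTH1, and 3626, 2566 and 4034 with CTH2. HXT7 is a near-identical gene read by a probe set whose suffix, like that of HXT6, marks shared sequence, so the pair counts as 1 measurement (1.28 and 1.12). HXK1, the hexokinase used when glucose is low, had 2423, 2084 and 2114 with the vector, 2982, 4092 and 3005 with CTH1, and 4357, 3904 and 5557 with CTH2. It was 1.77-fold higher with no overlap, as all 6 arrays lay above the vector for 2.47% of all genes. GSY1 had 137, 134 and 81 with the vector, 172, 197 and 240 with CTH1, and 278, 258 and 260 with CTH2, a 2.02-fold difference. The glycogen branching enzyme GLC3 (0.50, SE 0.21) was higher on all 6 arrays too. The glycogen phosphorylase GPH1 had a pooled 0.97 that came from CTH2 (0.15 with CTH1 and 1.79 with CTH2). Of 14 glycogen and trehalose genes measured, 3 had an unadjusted p under 0.05 with higher values, 13 had values above 0 and the median was 0.24. Of 13 hexose transporters and sensors HXT5 (0.92 with CTH1 and 0.41 with CTH2), MTH1 and the pair HXT6 and HXT7 did so, with a median of 0.16. Over all genes the share with such higher values was 5.66%.

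Other genes with the smallest p on the higher side had varied roles. OM45, of the mitochondrial outer membrane, had signals of 145, 170 and 137 with the vector, 237, 214 and 254 with CTH1, and 267, 280 and 302 with CTH2. MPO1, an iron-dependent dioxygenase of sphingoid base breakdown, had 143, 192 and 202 with the vector, 287, 317 and 335 with CTH1, and 358, 404 and 256 with CTH2. For both genes the groups did not overlap, and the CTH2 minus CTH1 difference was 0.27 (95% interval -0.17 to 0.70) for OM45 and 0.09 (-0.42 to 0.60) for MPO1. ROM1, an exchange factor of the Rho1 GTPase of cell wall growth, had 0.94 (SE 0.24), the methylesterase PPE1 0.85 (SE 0.22), the mannosyltransferase MNN1 0.90 (SE 0.22) and the bud neck kinase KCC4 0.71 (SE 0.18). For KCC4 the dimmer probe sets had 0.24 and 0.39, and the mean of all was 0.44. CTH2 minus CTH1 was 0.42 for MNN1 (95% interval -0.13 to 0.97) and 0.44 for KCC4 (-0.02 to 0.90). In 91.7% of the 12 higher genes CTH2 was above CTH1, against 51.5% of all tested genes. These 12 hold the pair HXT6 and HXT7, which counts as 1 measurement. Over all 256 higher genes at an unadjusted p under 0.05 the share was 59%, and 33.6% without CTH1 replicate 1. That fit has unequal CTH groups, which by itself favours CTH1 as the more extreme. RTC3 had 0.82 (SE 0.18), with 0.47 for CTH1 and 1.17 for CTH2. On the lower side, NFT1, a transporter of the ATP-binding cassette family, had -1.27 (SE 0.27) and equal values for both paralogues (-1.28 and -1.25). These values are from a probe set whose suffix marks shared sequence. Its other sets with such a suffix had -1.27, -1.37 and -1.59. Those without it had -0.59 (SE 0.36) and -0.56 (SE 0.26). HIS3, an enzyme of histidine synthesis, had 827, 1021 and 1309 with the vector, 728, 582 and 607 with CTH1, and 561, 499 and 366 with CTH2. Its second probe set had -0.31 (SE 0.13), and the labels do not give the strain's marker genes.

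How far the response is common can be read from the CTH2 minus CTH1 difference. Its estimate does not use the vector arrays, but its SE, interval and p use a spread taken from all 9 arrays. With groups of equal size this estimate is uncorrelated with the pooled one, although both use each gene's same estimate of spread. limma called 1 gene between the paralogues (0.022% of 4537, the gene TIS11), and 7.47% had an unadjusted p under 0.05. CTH1 was not among the tested genes, since its mean signal lay under the filter. It was called between the paralogues with no filter on dim genes. Of the 150 genes with lower pooled values at an unadjusted p under 0.05, CTH2 was below CTH1 for 67.3%, against 48.5% of all tested genes. Their median difference from vector was -0.55 for CTH1 and -0.73 for CTH2. The paralogues differed at an unadjusted p under 0.05 for 48 of these 150 genes (32%), and in 36 of the 48 CTH2 was the lower. Of the 256 genes with higher pooled values, CTH2 was above CTH1 for 59%, against 51.5% of all tested genes, and 22 (8.59%) differed on those terms. The share of 67.3% was 46.6% without CTH1 replicate 1, against 48.7% of all genes, and 57.1% to 76.6% with any other array left out. The 36 of 48 became 21 of 50 without CTH1 replicate 1, so that CTH1 was then the lower in most, and 29 of 52 without CTH1 replicate 3. On the higher side 59% became 33.6% without CTH1 replicate 1. Leaving out a CTH array makes the CTH groups unequal, so the pooled and between-paralogue estimates are then correlated. Genes chosen by the pooled value then lean toward the smaller group as the more extreme. The lower-side share was 46.6%, 58.8% and 63.3% without CTH1 replicates 1, 2 and 3, and 70.1%, 71.5% and 67.7% without those of CTH2. These fits therefore cannot show how far the main shares rest on 1 array. The CTH2 arrays were also the lowest in the 18S control set, and whether this bears on the CTH2 minus CTH1 differences was not tested.

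Among the 24 genes with the smallest p, 4 of the 12 lower ones had a 95% interval of the CTH2 minus CTH1 difference that left out 0, namely ACO1, HEM15, WTM1 and COX6, all with CTH2 lower. SDH2, SDH1, QCR7, QCR8, NFT1, CCP1, HIS3 and ILV3 had intervals that held 0, with bounds from -0.95 for HIS3 to 1.00 for CCP1, so differences of up to about that size remain possible. On the higher side HPF1, HXT6, HXT7, HXK1 and RTC3 had intervals above 0. These intervals are not adjusted for the number of genes, and none of the 24 differences passed over all genes (limma adjusted p of 0.25 to 1). With array weights 26 genes were called between the paralogues, and WTM1 and HXT6 were among them.

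**Figure D3:**
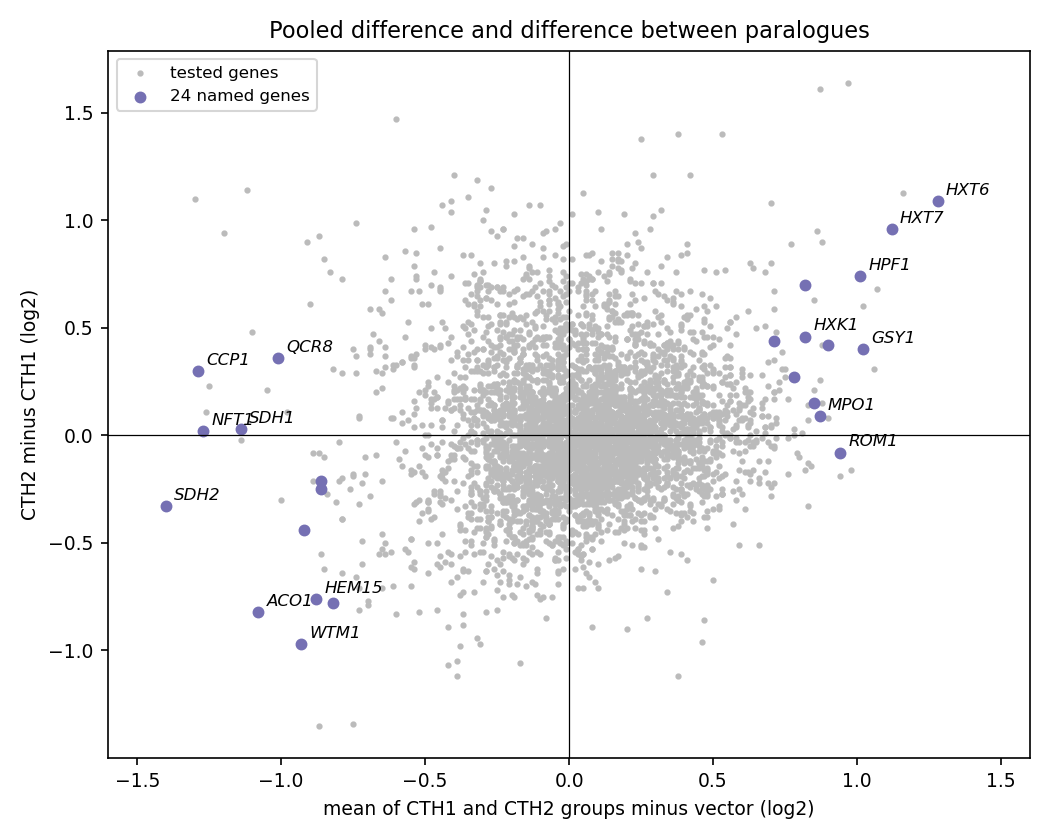
For each tested gene, the mean of the CTH1 and CTH2 groups minus vector (horizontal, log2) is plotted against CTH2 minus CTH1 (vertical, log2), without TIS11. SDH1 and NFT1 lie near 0 on the vertical axis (0.03 and 0.02), while WTM1 (-0.97) and HXT6 (1.09) lie far from it.

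The genes with lower values were also brighter and shorter than most. The 150 genes had a median log2 signal of 9.34 and a median coding length of 816 nucleotides, against 8.51 and 1212 over all tested genes. The 256 genes with higher values had 8.22 and 1270.5. Since short messengers were low on CTH1 replicate 3, the short genes were also fitted without that array. QCR8, of 285 nucleotides, then had -0.96, QCR7, of 384, had -0.83, and CYC1, of 330, had -0.71, close to their values with all arrays. COX9 went from -1.14 to -0.92, COX17 from -1.05 to -0.76, COX14 from -0.53 to -0.36 and ATP15 from -1.20 to -0.83. With the coding-length trend removed from every array QCR8 had -0.85, QCR7 -0.77, COX9 -1.01 and COX17 -0.89, and RTC3, of 336 nucleotides, had 0.94.

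Genes of protein synthesis had medians slightly below the 0.05 of all genes. Of 81 cytosolic ribosomal proteins 68 had values below 0, as did 1916 of 4536 genes in all. Their median was -0.16, and 5 had an unadjusted p under 0.05 with lower values and 1 with a higher value, led by RPL39 (-1.12, SE 0.40). Over all genes 3.31% were lower and 5.66% higher on those terms. The median of the ribosomal proteins was -0.25 with a common median and -0.04 after quantile normalization. From the vector mean it was -0.04, -0.16 and -0.4 on CTH1 replicates 1, 2 and 3, the last being the array low in short messengers. On the CTH2 arrays it was -0.1, -0.31 and 0.08. RPL39 had -1.69 for CTH1 and -0.55 for CTH2. The 64 mitochondrial ribosomal proteins had -0.11, with MRPL33 (-0.87, SE 0.21) at -1.33 for CTH1 and -0.40 for CTH2, and the 69 ribosome biogenesis genes -0.02. The 28 mRNA decay genes had a median of 0.09, led by LSM2 (-0.55) and EDC2 (0.49). Glycolysis and fermentation (27 genes, 0.07, led by HXK1), zinc and copper regulons (13 genes, 0.07) and heat shock with general stress (25 genes, -0.02) had medians near the 0.05 of all genes. In the stress group 5 of 25 genes had an unadjusted p under 0.05 with higher values, among them RTC3 and the aldose reductase GRE3 (0.68), and 2 with lower ones. The shares over all genes were 5.66% and 3.31%.

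**Figure D4:**
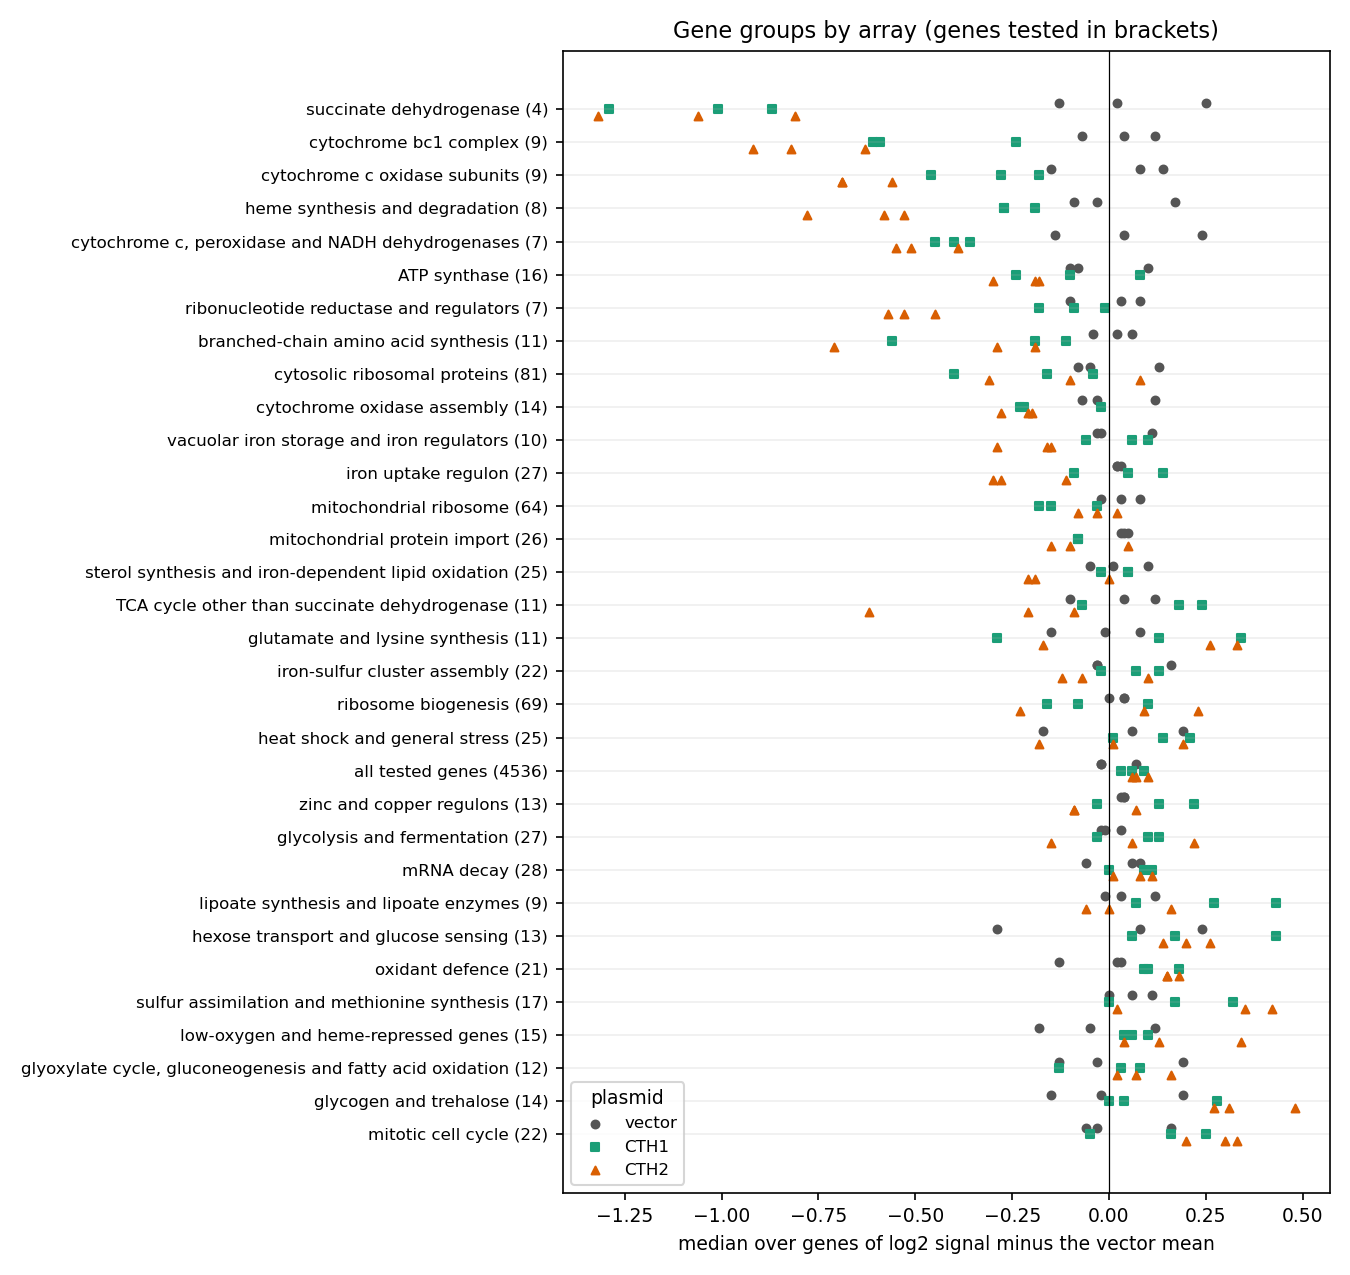
For each gene group, each point is 1 array, as the median over the group's genes of the log2 signal minus that gene's vector mean; the number of genes tested is in brackets. The CTH1 and CTH2 arrays of succinate dehydrogenase lie between -1.32 and -0.81, below the vector arrays (-0.13 to 0.25), and all tested genes lie between -0.02 and 0.10.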

How the data were processed

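The 9 arrays were Affymetrix Yeast Genome S98. Per the submitters' processing notes the deposited intensity values came from MAS5, whose version these sources do not give. Each probe set has 1 linear signal per array. Their mean without the lowest and highest 2% was 500.4 to 500.6 on every array. Of 9335 probe sets, 6504 had 1 gene (all matched to RefSeq assembly R64, 5656 genes), 328 several, 2443 none listed and 60 were controls. Signals were floored at the 10th percentile (43.2) and log2-transformed. The brightest set per gene was kept, and the 4537 genes with a mean log2 signal above the 25th percentile (98.4) were tested, 258 of them on sets whose suffix marks shared sequence. limma 3.58.1 (R 4.3.3) fitted 1 mean per group to all 9 arrays, with lmFit, eBayes with an intensity trend and Benjamini-Hochberg adjustment, for the mean of CTH1 and CTH2 minus vector and for CTH2 minus CTH1. Both groups weigh equally. The procedure was tested on simulated data.

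Members and gene lists were chosen with earlier results of these data known. Genes named are the 12 each way with the smallest p, and called members or else the 2 with the smallest p of a list. All measured members of the succinate dehydrogenase, bc1, oxidase, heme and reductase lists are also named. Others, such as LEU1, MET5, FET3 or MFA2, were chosen after their values were seen. Alternatives were scaling, floor, filter, probe-set choice, variance model, replicate block, coding-length trend and each array left out. Array number limits the precision. Sequences were not analysed here.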

Additional observations from a re-analysis of the deposited data

Results flagged for a closer look

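The effect of the plasmids on TIS11 differed between the CTH2 and CTH1 arrays by 6.49 on the log2 scale in the limma test of that difference. TIS11 is the gene introduced in the CTH2 group, and the value understates the difference, since every CTH1 array was raised to the floor.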

How the results depend on the processing

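In the pooled comparison TIS11 alone was called. There were 2 calls with arrays scaled to a common median or the coding-length trend removed (1 besides TIS11, SDH2) and 3 with array weights (2 besides TIS11, SDH2 and HPF1). There were 0 with only genes above the 50th percentile, where TIS11 is not tested, or with both CTH groups as 1 group. With single arrays left out the calls ran from 1 to 3 (0 to 2 besides TIS11), the 3 being those without vector replicate 1. CTH2 against CTH1 gave 3 calls with no filter on dim genes (CTH1, PRM4 and TIS11), on either probe-set rule. It gave 0 above the 50th percentile, 26 with array weights, and 1 to 3 with single arrays left out. Of 9 same-numbered pairs of arrays, 2 had correlated deviations above 0.1 (-0.58 to 0.21), as had 8 of 18 pairs with other numbers (-0.53 to 0.54). With 3 arrays per group, these correlations cannot settle whether the replicate numbers pair the arrays. With the replicate block 1 gene was called in each comparison and SDH2 had a limma adjusted p of 0.36. The genes with lower values at an unadjusted p under 0.05 numbered 91 and 94 without vector replicates 2 and 3, and those with higher values 107 without vector replicate 3, 153 above the 50th percentile and 401 with every probe set and no filter. All 24 named genes kept their direction in every alternative in which they were tested, but they were chosen for their small p in these same data. The alternatives with every probe set still read each named gene by its brightest set, and the dimmer set of QCR8 had 0.01.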

Other observations

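Values of a few further genes follow. MFA1, which encodes the a-factor pheromone, had -1.31 for CTH1 and -1.20 for CTH2, and its pooled value of -1.26 was -0.93 without CTH1 replicate 3; its signal was 852 to 1347 with the vector and 175 to 892 with either gene, and its coding length is 111 nucleotides. In sulfur metabolism the methionine permease MUP3 had 0.94 (SE 0.25), with 1.04 and 0.85, and the S-adenosylmethionine synthetase SAM2 had 1.16 (SE 0.37), with 0.59 and 1.72. Of 17 sulfur and methionine genes 4 had an unadjusted p under 0.05 with higher values, where 5.66% of all genes did, and the median was 0.18. The B-type cyclin CLB1 was higher on all 6 arrays (0.63, SE 0.18), in a cell cycle group of 22 genes with a median of 0.25, or 0.14 after quantile normalization. In the glyoxylate and fatty acid group the peroxisomal thioesterase TES1 was lower on all 6 arrays (-0.75, SE 0.23), against a median of 0.20 for 12 genes.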
